A study of Mus musculus with 8 samples.

Results

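The CXCR3 and CXCR6 chemokine axes were described here through 5 genes, the ligand genes Cxcl9, Cxcl10 and Cxcl16 and the receptor genes Cxcr3 and Cxcr6. They were taken by symbol, and each matched 1 of the 32285 genes listed for every library. Submandibular glands, a pair of major salivary glands, and their draining lymph nodes came from mice about 12 weeks of age, 4 with the SS genotype and 4 controls, and leukocytes were sorted by the surface protein CD45. The labels give the genotype as SS or control, do not expand SS and name no strain, allele or treatment. They list 1 gene expression sample and 1 T cell receptor sample for each of SS gland, control gland, SS lymph node and control lymph node, and the receptor samples were not used here. How many of the mice entered a library was not stated in the sources used here, so no group had a replicate.

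Expression was read from 4 matrices, called libraries C1 to C4 here after their names, and no label or file header tied a library to a genotype or a tissue. Every value below is therefore given per library, side by side, with no test between SS and control or between gland and lymph node. Per the labels, glands were digested with collagenase and lymph nodes were only triturated, so tissue and handling cannot be told apart. Depth was 37902916 to 77819179 unique molecular identifiers (UMIs, counts of single captured RNA molecules) per library, and 5616, 5067, 8532 and 5957 barcodes of C1 to C4 passed the filters. A barcode stands for a droplet or well and may hold more than 1 cell. At least 1 UMI of any of the 5 genes was found in 4287, 3834, 5885 and 824 of those barcodes. A level in CPM is a gene's UMI sum divided by the sum of all UMIs of the same barcodes, times 1000000, and values in parentheses after a level or a share are 95% intervals for counting error only. The UMI levels of different genes were not compared with each other.

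Chemokines are small secreted proteins that direct the migration of cells bearing their receptors. CXCL9 and CXCL10 are ligands of CXCR3, a receptor of activated T cells, NK cells and plasmacytoid dendritic cells, and the genes of both ligands are induced by interferon-gamma. CXCL16 is made as a membrane-bound protein that the proteases ADAM10 and ADAM17 can shed, and it is the ligand of CXCR6, a receptor known from T cells that stay in tissues. Both receptors signal through inhibitory G proteins. In salivary glands inflamed by autoimmunity, CXCR3 ligands are known to be made by epithelial cells as well as by infiltrating leukocytes.

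On the GRCm38.p6 assembly of the RefSeq gene table, Cxcl9 (ENSMUSG00000029417) lay at chr5:92321331-92328079 and Cxcl10 (ENSMUSG00000034855) at chr5:92346638-92348889, with 18558 bases between them. Cxcl11, a further gene for a CXCR3 ligand, followed after 10654 bases and is annotated there as a transcribed pseudogene. Cxcl16 (ENSMUSG00000018920) was at chr11:70454389-70459984, Cxcr3 (ENSMUSG00000050232) at chrX:101731535-101734147 and Cxcr6 (ENSMUSG00000048521) at chr9:123806477-123811754. RefSeq promoter windows were matched for 4 of the 5 genes, all but Cxcl16. The 250 bases before the start of the neighbouring ligand genes Cxcl9 and Cxcl10 are shown because these genes had different patterns over the libraries. They read 5′ to 3′ on the gene's minus strand, and capitals mark motif matches.
Cxcl9, chr5:92328080-92328329: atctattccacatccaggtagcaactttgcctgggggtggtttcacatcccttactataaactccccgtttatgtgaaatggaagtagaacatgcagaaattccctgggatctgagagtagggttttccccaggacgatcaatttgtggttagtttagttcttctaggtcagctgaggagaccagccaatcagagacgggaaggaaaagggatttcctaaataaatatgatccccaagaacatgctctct
Cxcl10, chr5:92348890-92349139: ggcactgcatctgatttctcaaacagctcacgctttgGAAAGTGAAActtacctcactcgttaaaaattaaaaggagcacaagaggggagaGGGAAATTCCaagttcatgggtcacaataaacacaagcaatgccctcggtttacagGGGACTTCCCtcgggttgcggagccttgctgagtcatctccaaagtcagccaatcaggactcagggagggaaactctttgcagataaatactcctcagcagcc

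Both strands of the 4 windows were searched for an interferon-stimulated response element core of GAAA, any 2 bases and GAAA again, for the NF-kB motif and for the T-box core GGTGTGA. Positions are counted from the base before the start, and NF-kB is given by name. The Cxcl10 window held the response element core at -213 to -204 from the start and an NF-kB match at -159 to -150 and again at -103 to -94. No match overlapped another. The windows of Cxcl9, Cxcr3 and Cxcr6 held none, which says only that these letters were not in them. Among 32817 windows of the same length, 2.97% held the response element core, 3.90% the NF-kB motif and 3.33% the T-box core. A match is a description of letters and was not tested as a binding site.

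Barcodes were clustered without the 5 genes and without antigen receptor segment genes, and clusters were called T-like, macrophage-like and so on from marker genes. Of 38 clusters, 11 were T-like, 3 macrophage-like and 10 unnamed. The T-like class held 603, 3275, 7502 and 3786 barcodes of C1 to C4. Macrophage-like barcodes numbered 2484 in C1 and 422 in C2, with none in C3 and C4, and NK-like barcodes 1520, 378, 18 and 32. Although the cells were sorted for CD45, C1 and C2 held 118 and 182 barcodes called epithelium-like, and 58 and 18 called endothelium-like. Unnamed clusters held 11.2%, 12.9%, 1.44% and 0.974% of the barcodes. The T-like class was made of different clusters in each library, so cluster values stand beside the class values. Where 1 library makes up most of a cluster, the cluster may mark that library and no type of cell. Calls of doublets numbered 166, 0, 2 and 116 in C1 to C4, which for C2 and C3 means that the caller failed. The libraries shared 307 barcode sequences (1.23% of all kept). The level plot shows all 5 genes over the named classes.

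**Figure D1:**
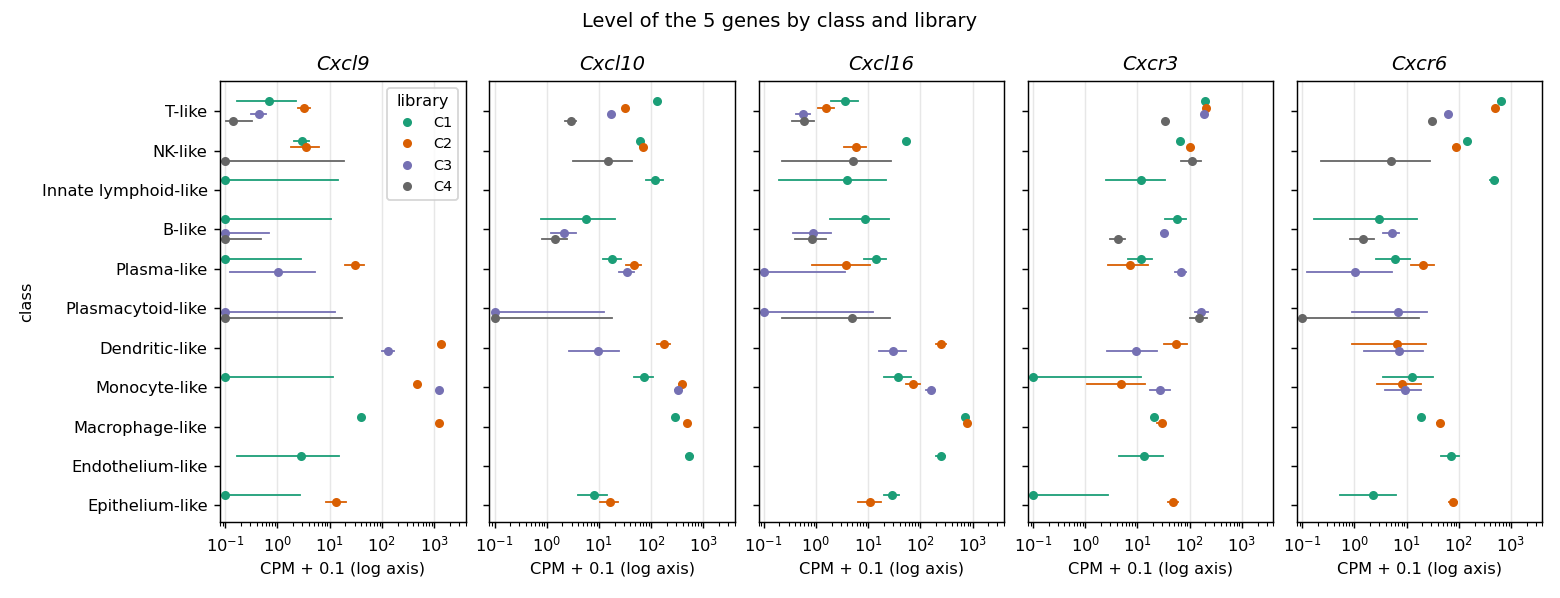
Level of each gene (CPM plus 0.1, log axis) in each class with at least 20 barcodes of a library; points are libraries C1 to C4 and bars are 95% Poisson intervals. In C1 to C3 the ligand genes peak in myeloid or endothelial classes; Cxcr6 is highest in T-like barcodes of each library, Cxcr3 in those of C1 to C3 but in plasmacytoid-like barcodes of C4 (151 CPM); Cxcl9 in macrophage-like barcodes was at 39.1 CPM in C1 and 1254 CPM in C2.

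Cxcl9 was a ligand gene of macrophage-like, monocyte-like and dendritic-like barcodes, and its level differed most between libraries. In macrophage-like barcodes it was at 39.1 CPM (36.2 to 42.1) in C1 and 1254 CPM (1221 to 1287) in C2, a ratio of 32.1. A Cxcl9 UMI was found in 2.05% (1.53 to 2.69%) of these barcodes in C1, at a median depth of 6499 UMIs, and in 60.9% (56.1 to 65.6%) in C2, at 9490.5 UMIs. After thinning to 3603 UMIs, which left out the 234 and 57 barcodes below that depth, the shares were 1.60% and 52.9%. T-like barcodes, which are not known to make Cxcl9, carried a UMI in 0.166% and 1.53% at median depths of 5354 and 4902 UMIs. Free RNA, taken as barcodes of 50 to 200 UMIs, had Cxcl9 at 1.82 CPM in C1 and 77.8 CPM in C2.

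The C1 level rested on few barcodes. A single barcode held 234 of the 700 Cxcl9 UMIs of that class in C1, or 33.4%, and the 9 barcodes with at least 10 UMIs held 86.0%. Without the highest barcode of each library the levels were 26.1 CPM in C1 and 1209 CPM in C2, and their ratio rose to 46.4. In C2, 103 barcodes had at least 10 Cxcl9 UMIs and held 90.4% of the class's UMIs. The difference was present in each of the 3 macrophage-like clusters. Cluster 2, led by Il1a and Cd14, was at 34.9 CPM in C1 and 686 CPM in C2. Cluster 10, a shallow cluster led by Tgfbi and Pf4, held 1 Cxcl9 UMI in C1 and was at 1445 CPM in C2. Cluster 13, led by Tgfbi and the chemokine gene Ccl7, was at 95.8 CPM in C1, with 8.26% of barcodes carrying a UMI, and at 1309 CPM in C2, with 68.3%. Most macrophage-like barcodes of C1 were in cluster 2, and most of C2 in cluster 13.

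Other myeloid clusters carried Cxcl9 where macrophage-like barcodes were absent. In C3, 87.3% of the kept Cxcl9 UMIs were in 56 monocyte-like barcodes, at 1235 CPM (1157 to 1316). Nearly all came from cluster 31, led by Ly6i and Saa3, at 1741 CPM in C3 and 1476 CPM in C2, with a UMI in 74.4% and 86.4% of its barcodes. Its monocyte name rested on a marker score of 0.521, with no monocyte marker among its leading genes. The other monocyte-like cluster, 28, led by Chil3, was at 126 CPM (84.9 to 180) in C3. It held no Cxcl9 UMI in 29 barcodes of C1 and 39 of C2, which allows shares of up to 10.3% and 7.69%. Dendritic-like barcodes were at 1333 CPM (1207 to 1468) in the 23 of C2, 131 CPM (98.7 to 170) in the 32 of C3 and 45.9 CPM in the 12 of C4. Unnamed cluster 32, led by Cd209a and Mgl2, was at 167 CPM in C1 and 775 CPM in C2. Unnamed cluster 37, led by Ccl8 and Cd209b, was at 695 CPM in its 24 barcodes of C3. The 18 endothelium-like barcodes of C2 were at 1065 CPM (822 to 1358), and the 58 of C1 held 1 UMI. All kept barcodes of C4 together held 11 Cxcl9 UMIs, 9 of them in dendritic-like barcodes. B-like barcodes held none in any library, which in the 2037 of C4 allows a share of up to 0.147%, taking 3 barcodes as the limit that a count of 0 allows.

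**Figure D2:**
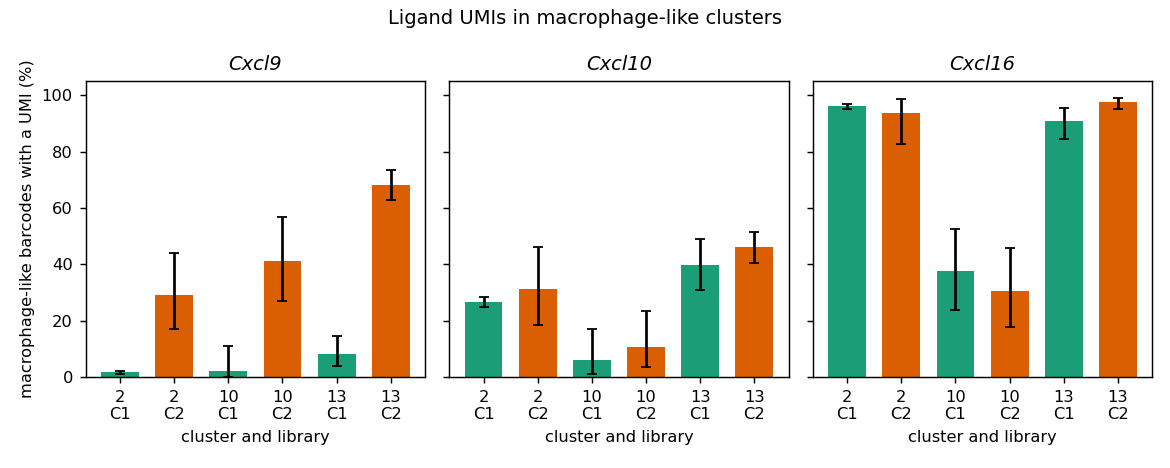
Share (%) of macrophage-like barcodes with a UMI of each ligand gene, by cluster (2, 10, 13) and library (C1 green, C2 orange), from 0; error bars are 95% Clopper-Pearson intervals. Cxcl9 shares are higher in C2 in all 3 clusters, and Cxcl16 shares in clusters 2 and 13 are above 90% in both libraries.

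Cxcl10, the neighbouring CXCR3 ligand gene, was spread over more classes. Macrophage-like barcodes were at 283 CPM (276 to 291) in C1 and 487 CPM (467 to 508) in C2, with a UMI in 26.8% and 40.5%. After thinning, these shares were 22.4% (20.6 to 24.1%) and 32.6% (27.8 to 37.7%). By cluster, cluster 2 was at 267 CPM in C1 and 709 CPM in C2. Cluster 13 was at 505 CPM (466 to 545) and 469 CPM (448 to 491), with overlapping intervals, and a UMI was found in 39.7% and 46.0% of its barcodes. Without the barcodes of the highest doublet scores cluster 13 was at 460 and 473 CPM. Monocyte-like barcodes were at 72.7, 388 and 326 CPM in C1, C2 and C3. Dendritic-like barcodes of C2 were at 175 CPM. In C4, the 9 monocyte-like barcodes held 85 of the 175 Cxcl10 UMIs. B-like barcodes, a comparison class, carried a UMI in 2 of 62 in C1 and 1.08% and 0.393% in C3 and C4, at median depths of 4470, 5336.5 and 3955 UMIs.

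Endothelium-like barcodes were at 540 CPM (468 to 620) in C1 and 918 CPM (693 to 1192) in C2, with a UMI in 9 of 58 and 4 of 18 barcodes. In C1 these barcodes carried all 8 macrophage markers, summed to 7291 CPM, and in C2 they carried 3 of the 8, summed to 197 CPM. The part of macrophage RNA in the endothelium-like values was not tested. Macrophage-like barcodes held 75.9% of the kept Cxcl10 UMIs of C1 and 60.6% of those of C2.

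T-like barcodes also held Cxcl10, at 132, 31.0, 16.6 and 2.76 CPM in C1 to C4, and 77.3% of C3's Cxcl10 UMIs were in that class. In C1, 1 barcode held 153 of the 448 UMIs, and without it the level was 86.7 CPM. Macrophage markers in T-like barcodes summed to 66.4, 32.1, 8.32 and 2.76 CPM, with 7 or 8 of 8 found in each library. The part of macrophage RNA in the T-like Cxcl10 values was not tested. Within C3, Cxcl10 was not spread evenly over T-like clusters. It was at 133 CPM in cluster 14, led by the regulatory T cell gene Foxp3, and at 77.1 CPM in cluster 7, led by Sostdc1 and Tiam1. T-like barcodes of C3 with Cd4 and no Cd8 or Foxp3 UMI were at 66.5 CPM (61.0 to 72.4), against 5.54 CPM (4.91 to 6.22) in those with Cd8 only. In C2 the highest T-like cluster was 17, led by interferon-response genes such as Ifit1, at 775 CPM with a UMI in 13 of 43 barcodes. NK-like barcodes were at 62.1 CPM in C1 and 71.3 CPM in C2, and innate lymphoid-like barcodes of C1 at 119 CPM.

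At equal depth, both CXCR3 ligand genes were found together in 21.4% (17.3 to 25.9%) of the macrophage-like barcodes of C2, where the product of their shares was 17.2%. In C1 the joint share was 0.756% (0.441 to 1.21%) against a product of 0.358%. Barcodes with a Cxcl9 UMI were deeper before thinning, with medians of 8391 UMIs in C1 and 11364 in C2, against 6480 and 7493 in those without.

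Cxcl16 was found in most macrophage-like barcodes. It was at 714 CPM (702 to 727) in C1 and 787 CPM (761 to 813) in C2, a ratio of 1.10. A UMI was found in 94.7% (93.8 to 95.6%) and 89.8% (86.5 to 92.5%) of the barcodes, and in 88.7% and 90.1% after thinning. Macrophage-like barcodes held 90.9% and 91.6% of the kept Cxcl16 UMIs of these libraries. The tenth of macrophage-like barcodes with most Cxcl16 UMIs held 26.4% of them in C1 and 26.2% in C2. For Cxcl10 the same share was 83.9% and 75.2%. Cxcl16 was found in 37.5% and 30.4% of the shallow cluster 10, whose median depth was 1049 UMIs, at 473 and 380 CPM.

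C3 and C4 held few Cxcl16 UMIs, 258 and 140 in all kept barcodes. Unnamed cluster 35, led by Fscn1 and Ccl22, genes known from mature dendritic cells, held 85 of them in C3 and 97 in C4. It was at 483 CPM in C3, with a UMI in 18 of 23 barcodes, and at 663 CPM in C4, with a UMI in 16 of 16. Monocyte-like barcodes of C3 were at 158 CPM (131 to 189) and held 46.5% of that library's UMIs. In C4, dendritic-like barcodes held 14 UMIs, T-like barcodes 12 and monocyte-like barcodes 8. Unnamed cluster 33, led by Lhfpl2 and Sowahc, was at 1223 CPM in C1 and 1065 CPM in C2 at a median depth of 1381 UMIs. Endothelium-like barcodes of C1 were at 247 CPM, beside the macrophage markers given above. T-like barcodes were at 3.52, 1.47, 0.462 and 0.480 CPM, with a UMI in 1.82% of them in C1 and 0.763% in C2.

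Cxcr3, the receptor gene for CXCL9 and CXCL10, had 86.5%, 96.9% and 89.3% of its kept UMIs of C2, C3 and C4 in T-like barcodes. In C1 that class held 35.3% of them, NK-like barcodes 41.1% and macrophage-like barcodes 19.1%. The level in T-like barcodes was 200 CPM (186 to 216) in C1, 207 CPM (200 to 213) in C2, 186 CPM (183 to 189) in C3 and 33.3 CPM (31.1 to 35.7) in C4. A Cxcr3 UMI was found in 50.7%, 53.2%, 66.0% and 10.3% of T-like barcodes, at median depths of 5354, 4902, 8258.5 and 6089.5 UMIs. Thinning to an equal depth of 3468 UMIs left out the 67, 554, 607 and 285 T-like barcodes of C1 to C4 below it. The shares were then 42.5% (38.3 to 46.8%), 44.0% (42.1 to 45.9%), 42.6% (41.4 to 43.8%) and 6.20% (5.42 to 7.05%). C1, C2 and C3 thus had overlapping intervals at equal depth, and C4 lay below them. The higher unthinned share of C3 went with its greater depth. Macrophage-like barcodes carried a Cxcr3 UMI in 9.34% in C1 and 17.1% in C2, and B-like barcodes in 11.2% in C3 and 1.23% in C4.

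The level of Cxcr3 in C4 moved with the make-up of the T-like class. In C4, 1893 of the 3786 T-like barcodes were in cluster 4, led by Igfbp4, Lef1 and Ccr7, genes known from naive T cells, and 26.2% in cluster 6, led by Dapl1 and Ccr9. In C3 the share of both clusters together was 7.25%. Cxcr3 was at 0.888 CPM in cluster 4 and 25.5 CPM in cluster 6 of C4. Without these clusters it was at 93.6 CPM (86.5 to 101) in C4 and 192 CPM (189 to 196) in C3, and the shares were 30.9% and 70.2%. In cluster 0, led by Gzmm and Ly6c2, the libraries were close, at 182 CPM in C3 and 178 CPM in C4. In the Foxp3-led cluster 14 they were not, at 354, 240 and 30.2 CPM in C2, C3 and C4.

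Among T-like clusters with at least 50 barcodes of a library, Cxcr3 was highest in cluster 9 of C2, at 389 CPM, followed by cluster 14 of C2 and by cluster 8 of C3, led by Gzmk and Esm1, at 310 CPM. It was low in cluster 12 of C2, led by Nrn1, Lag3 and Pdcd1, at 35.6 CPM. Cluster 9, led by Il17a, Cd40lg and Icos, was at 197 CPM in C1 and held no Cxcr3 UMI in its 46 barcodes of C4, which allows a share of up to 6.52%. In barcodes with Cd8 and no Cd4 UMI, Cxcr3 was at 222, 173, 184 and 70.8 CPM in C1 to C4. In those with Cd4 only and no Foxp3 UMI it was at 237, 285, 202 and 9.75 CPM. In C4 the Cd4-only level was therefore the lower of the pair, while in C2 it was the higher.

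**Figure D3:**
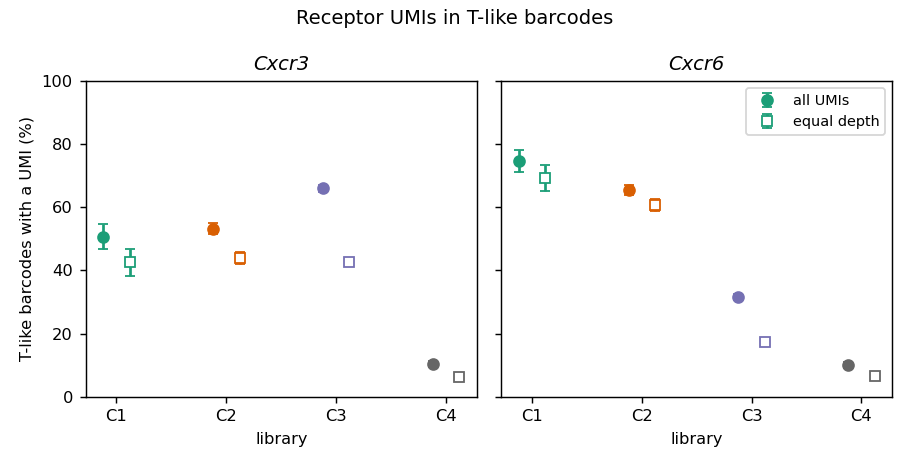
Share (%) of T-like barcodes with a UMI of each receptor gene in libraries C1 to C4, with all UMIs (filled) and after thinning to 3468 UMIs per barcode (open). Barcodes below that depth are left out of the open points. Bars are 95% Clopper-Pearson intervals. Thinning brings C3 to the level of C1 and C2 for Cxcr3 (42.5 to 44.0%), while for Cxcr6 C3 stays below them at 17.4%.

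Outside T-like barcodes, Cxcr3 was found in NK-like and plasmacytoid-like barcodes. NK-like barcodes were at 65.8 CPM (61.3 to 70.6) in C1, 102 CPM (91.1 to 114) in C2, 102 CPM (50.8 to 182) in C3 and 109 CPM (68.5 to 165) in C4. Plasmacytoid-like barcodes, the class led by Siglech, carried a UMI in 12 of 16 in C2, 19 of 26 in C3 and 16 of 20 in C4, at 110, 167 and 151 CPM. In plasma-like barcodes, whose class secretes antibody, it was at 67.0 CPM (52.4 to 84.3) in C3 and at 11.6 and 7.23 CPM in C1 and C2. B-like barcodes were at 32.0 CPM (27.7 to 36.7) in C3 and 4.13 CPM (2.95 to 5.63) in C4. All 8 T markers were found in those B-like barcodes, at a sum of 344 and 322 CPM. In B-like cluster 20 they summed to 2555 CPM in C3 and 2370 CPM in C4. Without that cluster Cxcr3 was at 24.6 CPM (20.7 to 29.0) in C3 and 2.35 CPM (1.43 to 3.62) in C4, and Cxcr6 was found in 0.877% and 0.213% of B-like barcodes. Epithelium-like barcodes of C2 were at 48.8 CPM for Cxcr3 and 77.4 CPM for Cxcr6, beside all 8 T markers summed to 1369 CPM, and the part of T cell RNA in these values was not tested.

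Macrophage-like barcodes were at 20.6 CPM in C1 and 28.9 CPM in C2 for Cxcr3. All 8 T markers were found in them, summed to 166 and 629 CPM. In cluster 2 of C1, 84 barcodes carried at least 2 T or NK markers, at a median depth of 11760 UMIs, and had Cxcr3 at 108 CPM and Cxcr6 at 256 CPM. The other 2231 barcodes of that cluster and library kept Cxcr3 at 13.8 CPM (12.0 to 15.8), with a UMI in 7.31%, and had Cxcr6 at 0.322 CPM (0.105 to 0.752). Free RNA of C1 held Cxcr3 at 4.80 CPM (3.22 to 6.90) and Cxcr6 at 12.6 CPM (9.91 to 15.8). In cluster 13 the Cxcr3 level without such markers was 6.60 CPM (2.42 to 14.4) in C1 and 13.6 CPM (9.59 to 18.8) in C2. Free RNA of C2 held Cxcr3 at 10.2 CPM (8.16 to 12.7). The barcodes without such markers were picked for having few of them. How much of a barcode was free RNA was not measured, so the part of free RNA in these values was not tested.

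Cxcr6, the receptor gene for CXCL16, was high in T-like barcodes of C1 and C2. It was at 647 CPM (620 to 674) in C1, 495 CPM (485 to 505) in C2, 62.0 CPM (60.1 to 63.9) in C3 and 30.5 CPM (28.3 to 32.7) in C4. A UMI was found in 74.8%, 65.6%, 31.6% and 9.98% of barcodes, and at equal depth in 69.4% (65.3 to 73.3%), 60.8% (58.9 to 62.6%), 17.4% (16.5 to 18.3%) and 6.57% (5.77 to 7.44%). For the whole class the intervals of the 4 libraries did not overlap. Macrophage-like barcodes carried a Cxcr6 UMI in 3.42% in C1 and 9.24% in C2, and B-like barcodes in 2.44% in C3 and 0.491% in C4. Without clusters 4 and 6 the T-like levels of C3 and C4 were 63.3 CPM (61.4 to 65.4) and 69.3 CPM (63.2 to 75.8), and the shares 33.1% and 19.4%. The C4 level rested on cluster 9, whose 46 barcodes held 225 of the 482 remaining Cxcr6 UMIs. With cluster 9 left out as well, Cxcr6 was at 38.4 CPM (33.9 to 43.4) in C4 and 63.0 CPM (61.0 to 65.0) in C3, and the shares were 15.4% and 33.0%. Cluster 9 made up 59.5% of the T-like barcodes of C1 and 9.92% of those of C2. Without clusters 4, 6 and 9, C1 was at 491 CPM (455 to 529) and C2 at 517 CPM (506 to 528). The shares were then 72.0% (65.8 to 77.7%) and 68.7% (67.0 to 70.4%), so C1 and C2 had overlapping intervals. C4 was thus below C3 for Cxcr3 with and without clusters 4 and 6. For Cxcr6 the order of the levels depended on which clusters were kept, and cluster 9 was left out after its values were seen. By cluster, Cxcr6 was at 75.5 CPM (60.4 to 93.2) in C4 and 38.4 CPM (34.0 to 43.1) in C3 for cluster 7. For cluster 0 it was at 38.3 CPM (30.7 to 47.2) in C4 and 74.0 CPM (71.5 to 76.7) in C3.

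Cxcr6 differed strongly among T-like clusters. Cluster 12 of C2 was at 1019 CPM, with a UMI in 96.9% (94.9 to 98.3%) of its 483 barcodes. Cluster 3, led by Gzmk and Pdcd1, was at 594 CPM in C1 and 422 CPM in C2. Cluster 9 was at 793 CPM in C1, 247 CPM in C2 and 844 CPM in the 46 barcodes of C4, where 93.5% carried a UMI. In C3, cluster 0 was at 74.0 CPM and clusters 7 and 8 at 38.4 and 43.8 CPM. Cluster 4 of C4 was at 1.33 CPM. The Foxp3-led cluster 14 was at 143, 32.5 and 9.45 CPM in C2, C3 and C4, below its library's class level in each.

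Within cluster 9, the receptor genes moved in opposite directions with Il17a, a cytokine gene that also leads the cluster. In C1, the 71 barcodes with an Il17a UMI had Cxcr6 at 1473 CPM and Cxcr3 at 66.0 CPM. The 288 without one had Cxcr6 at 639 CPM and Cxcr3 at 226 CPM. In C2, Cxcr6 was at 747 CPM in the 26 barcodes with Il17a and 193 CPM in the 299 without, and Cxcr3 at 147 and 415 CPM. In C4, Cxcr6 was at 1086 CPM in the 18 with and 667 CPM in the 28 without, and no barcode of either kind carried Cxcr3. The direction was the same in C1 and C2 for both genes. This split was chosen after the values of cluster 9 were seen.

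Cxcr6 in barcodes with Cd8 only was at 496, 551, 69.7 and 43.8 CPM in C1 to C4, and in those with Cd4 only and no Foxp3 UMI at 791, 388, 27.9 and 8.25 CPM. The Cd4-only level was the higher of the pair in C1 and the lower in C2, C3 and C4. Barcodes with neither were at 637, 304, 38.2 and 73.1 CPM. Innate lymphoid-like barcodes of C1, the class led by Areg and Il1rl1, were at 481 CPM (400 to 573), with a UMI in 30 of 44. They carried all 8 T markers, summed to 684 CPM, and no NK marker.

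NK-like barcodes had Cxcr6 at 146 CPM (139 to 153) in C1 and 86.6 CPM (76.7 to 97.4) in C2. Cluster 21, 118 of the NK-like barcodes of C1, carried all 8 macrophage markers, summed to 8818 CPM against 39.1 CPM in the other NK-like cluster, and had a median depth of 13306 UMIs. It had Cxcl16 at 378 CPM. Without it, the NK-like level of C1 was 2.21 CPM for Cxcl16 in place of 52.6, 0.0959 for Cxcl9 in place of 2.82, 158 for Cxcr6 and 70.5 for Cxcr3.

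**Figure D4:**
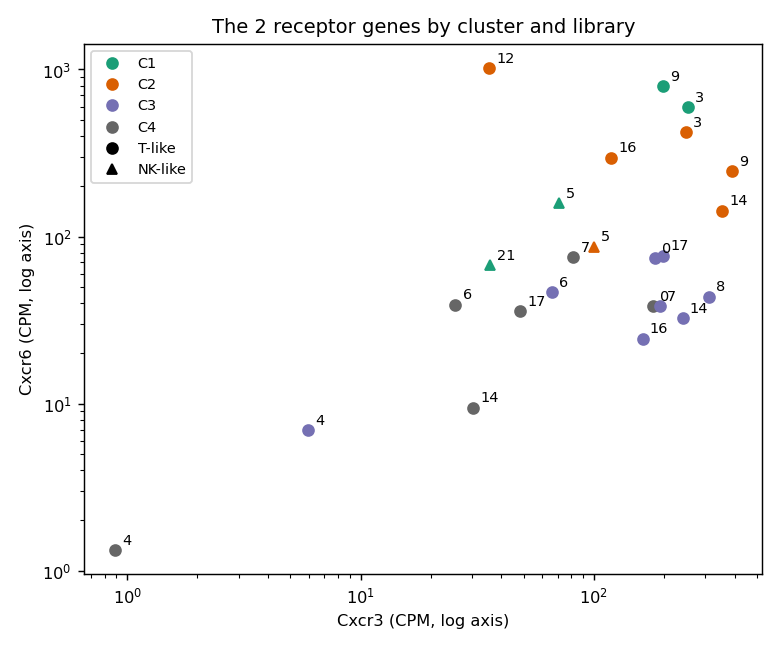
Level of Cxcr3 (x axis) and Cxcr6 (y axis), both CPM on log axes, in each T-like (circle) and NK-like (triangle) cluster with at least 50 barcodes of a library; numbers are clusters and colours libraries. Cluster 12 of C2 lies at 35.6 and 1019 CPM, clusters 7 and 8 of C3 lie to the lower right at 192 and 38.4 and at 310 and 43.8 CPM, and cluster 4 lies lowest on both axes among the clusters of C3 and of C4.

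The receptor genes were set against each other within T-like barcodes at equal depth. In C1 both were found in 33.6% (29.6 to 37.8%) of barcodes, against a product of the single shares of 29.5%. In C2 they were found together in 23.0% (21.4 to 24.6%), below the product of 26.7%. In C3 the joint share was 7.18% (6.58 to 7.81%) with a product of 7.41%, and in C4 it was 0.657% (0.417 to 0.984%) with a product of 0.407%. The joint share was thus above the product in C1 and C4 and below it in C2, while in C3 its interval held the product. Neither gene was found in 21.6%, 18.2%, 47.2% and 87.9%. Within the clusters named next, the interval held the product in C1 and C2. These intervals cover the joint share alone and not the product. Whether the receptor genes go together or apart within a cluster was therefore not tested. Cluster 3 of C1 had both in 41.5% (34.0 to 49.3%) against a product of 37.9%, and cluster 9 in 33.5% (28.4 to 39.0%) against 30.8%. Cluster 3 of C2 had both in 27.9% (25.8 to 30.1%) against a product of 29.5%, cluster 9 in 20.5% (15.7 to 26.0%) against 22.0%, and cluster 12 in 8.44% (6.04 to 11.4%) against 8.69%. In C4, cluster 0 had both in 3.63% (1.67 to 6.78%) against 4.73% and cluster 6 in 0.216% (0.0262 to 0.780%) against 0.749%. It was higher than the product in clusters 7 and 17 of C4, at 3.45% (1.13 to 7.86%) against 2.28% and 3.16% (0.656 to 8.95%) against 0.698%, and the interval held the product in these 4 clusters. Cluster 4 of C4, with 1791 barcodes at this depth, had both in 0.0558% (0.00141 to 0.311%) against 0.000873%, and its interval lay above the product. That share is a single barcode, so nothing can be read from it. The joint shares of clusters 6, 7 and 17 of C4 also rested on few barcodes. Cluster 12 of C2 carried Cxcr6 alone in 84.7% of barcodes.

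In C3 the T-like barcodes with Cxcl10 seldom had Cxcr6. Of 136 with a Cxcl10 UMI at equal depth, 3.68% carried Cxcr6, against 17.7% of those without, and 59.6% carried Cxcr3, against 42.3%. In C2, 48.5% of 99 carried Cxcr6, against 61.3% of those without, and 57.6% carried Cxcr3, against 43.5%. In C1, 59.5% of 42 carried Cxcr6, against 70.2%, and 38.1% carried Cxcr3, against 42.9%, so the direction for Cxcr3 was the other one. In C4, 8 of 23 carried Cxcr3 and 1 carried Cxcr6.

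Receptor shares were also compared between T-like barcodes with and without a UMI of partner genes at equal depth, where at least 50 barcodes lay on each side. Ccr7, the lymph node homing receptor gene, went with few Cxcr6 UMIs in C1, with 14.5% against 75.7%, and in C2, with 14.1% against 62.0%. In C4 they were 124 of 2480 barcodes against 10.4%, and in C3 they were close, with 16.8% against 17.8%. Pdcd1, the gene of the inhibitory receptor PD-1, went with more Cxcr6 in C1, 80.8% against 66.7%, and in C2, 71.5% against 42.2%, but with less in C3, 12.3% against 17.7%. In C4 the Pdcd1 shares were 11.6% and 6.47%, with overlapping intervals. Itgae is the gene of the alpha chain of the epithelial integrin CD103. It went with more Cxcr6 in C2, 81.4% against 59.0%, and in C4, 24.0% against 5.40%. In C1 the Itgae shares were 79.6% and 66.7% and in C3 19.6% and 17.4%, with overlapping intervals in both libraries. Itga1, the gene of the collagen-binding integrin chain CD49a, showed 86.3% against 64.7% in C1 and 80.1% against 59.5% in C2. With Cd69 the share was lower in C2, 55.8% against 69.6%, and the intervals overlapped in C1, C3 and C4, with 18.2% against 16.3% in C3.

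For Cxcr3 the partners differed by library. Tbx21 is the gene of the transcription factor T-bet, which is known to drive Cxcr3. It went with more Cxcr3 in C4, 45 of 90 barcodes against 5.04%, and in C3, 50.7% against 41.0%. In C1 the Tbx21 shares were 50.7% and 39.5% and in C2 47.4% and 43.1%, with overlapping intervals in both libraries. Pdcd1 went with less Cxcr3 in C2, 36.6% against 56.7%, and with more in C4, 15.9% against 206 of 3432 barcodes. In C1 and C3 the Pdcd1 shares had overlapping intervals, 52 of 104 barcodes against 40.7% and 42.9% against 42.6%. Ccr7 went with less Cxcr3 in C1, 14.5% against 45.7%, in C3, 39.2% against 44.9%, and in C4, 3.59% against 12.5%. In C2 it went with more, 67.6% against 43.4%. Gzmk, a granzyme gene, went with more in C3, 60.2% against 40.6%, and with less in C2, 42.0% against 50.8%, while in C1 the intervals overlapped at 46.1% and 41.7%. Ifng, the interferon-gamma gene, went with more in C1, 51.9% against 36.3%, and in C3, 54.1% against 41.7%, and with less in C2, 39.3% against 47.1%. Cluster 12 of C2 led with Pdcd1 and was low in Cxcr3, as given above.

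**Figure D5:**
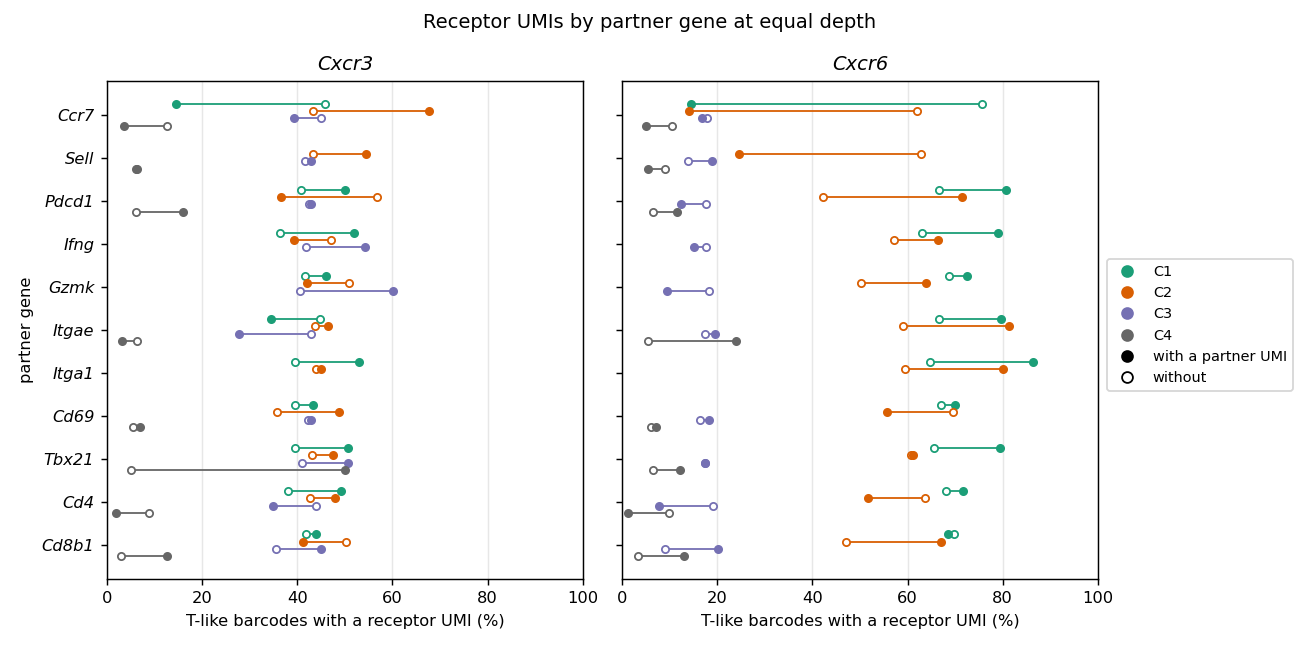
Share (%) of T-like barcodes with a Cxcr3 (left) or Cxcr6 (right) UMI at equal depth, among barcodes with (filled) and without (open) a UMI of each of the partner genes plotted, by library; pairs with fewer than 50 barcodes on a side are left out. Ccr7 splits Cxcr6 most widely in C1 and C2 (14.5% against 75.7% and 14.1% against 62.0%), and Tbx21 splits Cxcr3 most widely in C4.

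Other genes of the axes were taken from fixed lists and read against all genes of the class. In T-like barcodes 8973 genes had at least 100 UMIs in their highest library, and 11.8% of them differed at least 4-fold between the highest and the lowest library, with a median ratio of 1.55. Of the 5 genes described here 3 had enough UMIs in T-like barcodes, Cxcl10, Cxcr3 and Cxcr6, and all 3 were past 4-fold. Of 9 genes that control the ligands, such as the interferon-gamma pathway, 4 were past it and the median ratio was 2.56. Ifng itself had the largest ratio, at 426, 276, 32.0 and 5.56 CPM in C1 to C4. Jak1 was at 381 to 469 CPM, and Ifngr1 was at 524 CPM in C1 and 129 CPM in C4.

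Of 7 genes that control receptor genes or tissue residence, 5 were past 4-fold, with a median ratio of 10.2. Bhlhe40, a transcription factor gene of tissue-resident T cells, had the largest ratio, at 926, 517, 72.0 and 18.3 CPM. Runx3 was at 158, 201, 97.9 and 67.4 CPM and Klf2, a factor that promotes exit from tissue, at 725, 230, 546 and 693 CPM. Of 5 receptor signalling genes, with a median ratio of 1.43, 1 was past 4-fold, Rgs1, a brake on G-protein signalling, at 2334, 1413, 151 and 150 CPM. The G-protein gene Gnai2 was at 397 to 646 CPM. Of 4 ligand processing genes 1 was past 4-fold, Mmp9, at 43.2 CPM in C1 and at most 0.600 CPM elsewhere, while the sheddase genes Adam10 and Adam17 were at 52.4 to 78.6 and 30.1 to 41.0 CPM and the chemokine-cleaving protease gene Dpp4 at 41.1 to 55.9 CPM. The median ratio of these 4 was 1.43. Of 10 other chemokine receptor genes 7 had enough UMIs and all 7 were past 4-fold, with a median ratio of 17.4 and Cx3cr1 at the largest, 42.8. Ccr4, Ccr6 and Ccr9, highest in C1, fell short of 100 UMIs there, and the T-like barcodes of C1 held the fewest UMIs. The minimum was thus unequal in CPM between libraries, and the count of 7 depends on it. Ccr7 and S1pr1, a pair of genes of circulating T cells, were highest in C4, at 417 and 220.5 CPM. Of 9 other chemokine genes 8 were listed in the files, 3 had enough UMIs, Ccl5, Ccl4 and Ccl3, and all 3 were past 4-fold and highest in C2, as were 4.93% of all genes tested. Ccl3 had the largest ratio, at 107, 1150, 28.1 and 1.60 CPM, and Ccl5 was at 4210 CPM in C1 and 19912 CPM in C2.

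In macrophage-like barcodes, 9.33% of 7030 genes differed at least 2-fold between C1 and C2, with a median ratio of 1.24, and 4.15% did so with the higher level in C2. Of the 5 genes 2 were past it, Cxcl9 and Cxcr6, both higher in C2, and the median ratio of the 5 was 1.72. Cxcr6 was there at 19.1 and 43.9 CPM, beside the T markers given above. Of the 9 ligand control genes 2 were past it, Ifng among them, and the median ratio of the list was 1.22. Irf1 and Irf8 were at 246 and 358 CPM and at 412 and 398 CPM. Ifng was at 10.6 and 33.5 CPM, beside the T markers given above, and its source was not tested. The sheddase genes Adam10 and Adam17 were at 138 and 162 CPM and at 179 and 173 CPM. Of 3 ligand processing genes with enough UMIs 1 was past 2-fold, Dpp4, at 8.71 and 24.4 CPM. Of 4 receptor control genes 1 was past it, Klf2, at 1518 and 410 CPM, with Runx3 at 142 and 143 CPM and Bhlhe40 at 48.0 and 80.6 CPM. Of 5 receptor signalling genes 0 were past it, with Rgs1 at 6054 and 3669 CPM and Gnai2 at 586 and 673 CPM. Of 6 other chemokine receptor genes 3 were past it, with S1pr1 at the largest ratio, 6.32 and Cx3cr1 at 699.9 and 491 CPM. All 7 other chemokine genes with enough UMIs were past it, 5 higher in C1, as were 5.18% of all genes tested, and 2 in C2. Cxcl13 had the largest ratio, 57.3, at 0.949 CPM in C1 and 54.4 CPM in C2. Ccl4, Cxcl2 and Ccl3 were higher in C1, at 11659, 4363 and 4026 CPM against 4381, 1022 and 1237 CPM.

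Genes most like each of the 5 were ranked by Pearson correlation of log2(CPM + 1) over 16 sums of a class in a library, among 11815 genes. The sums of a library share its depth and handling, so the correlations are a description. Nearest to Cxcl9 were C4b (0.977), Pilra (0.966) and Batf2 (0.966), and nearest to Cxcl10 were Itm2b (0.953) and Dnase1l1 (0.948). Cxcl16 was nearest to Cttnbp2nl (0.973) and to the macrophage complement genes C1qb (0.969) and C1qa (0.967). Cxcr3 was nearest to Ptpn22 (0.911) and Ctla4 (0.900), and Cxcr6 to Klrg1 (0.937), Ifng (0.927) and Cd101 (0.913). Among the 5 genes themselves the ligand genes correlated at 0.728 to 0.801, Cxcr3 with Cxcr6 at 0.745, Cxcl9 with Cxcr3 at -0.119 and Cxcl16 with Cxcr6 at -0.0597.

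Co-detection within a class gave other neighbours. Macrophage-like barcodes with a Cxcl9 UMI were set against those without. A gene needed at least 50 UMIs in the barcodes with Cxcl9, in C1 and in C2, which 1312 genes met. Their median of the lower library ratio was 0.960. No minimum applied to the barcodes without Cxcl9, so genes could enter through the side where they were high. The ranking is therefore a description only. Gbp2, an interferon-induced GTPase gene, was at 189 against 11.7 CPM in C1 and 357 against 128 CPM in C2. Cd40, a co-stimulatory receptor gene, was at 140 against 14.0 CPM and 123 against 52.4 CPM. Il1rn, the interleukin-1 receptor antagonist gene, was at 119 against 11.4 CPM and 63.5 against 30.2 CPM. The others of the first 8 were Fxyd2, Hist1h2ap, Ccl5, Nampt and Ly6a, of which Fxyd2 also led the epithelium-like cluster and Hist1h2ap the cycling T-like cluster.

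In T-like barcodes with a Cxcr6 UMI the first genes by the lowest ratio of the 4 libraries were the gamma-delta receptor segment Tcrg-V6, with ratios of 7.54, 7.78, 4.01 and 26.5 in C1 to C4, and Il17a, with 1331 against 27.1 CPM in C1 and 48.8 against 27.3 CPM in C2. Actn2, Klrc1, Jaml, F2r, Cd160 and Gm29243 followed. The median of that lowest ratio over 5529 genes was 0.884. For both receptor genes the minimum of 50 UMIs again applied only to the barcodes with the receptor UMI, in every library. With a Cxcr3 UMI the first gene was Ly6c2, at ratios of 2.45, 4.28, 1.59 and 9.10, followed by Samd3, Ctla2b, Plac8, Hopx, Ctsw, Slamf7 and Ctla2a. The lists for the receptor genes had no gene in common. That is usual for 8 genes out of 5529 and 8 out of 4620, and it says nothing about the receptors.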

How the data were processed

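Leukocytes sorted for CD45 from submandibular gland and draining lymph node were profiled as single cells. The authors deposited raw counts of UMIs per gene and barcode, with all barcodes listed, per the file headers a Cell Ranger 4 matrix. The submitters' processing notes name Cell Ranger 6.1.2, STAR 2.7.10a and mm10 instead, with no role given. The labels' protocol names a BD Rhapsody library kit and the design text 10x sequencing, and the barcodes had 16 bases. The 4 expression libraries were not tied to the 8 samples, so nothing was tested between groups. The rule for ratios between libraries was run on simulated counts with planted changes larger than its cut. The correlation measure was run on a planted near-copy of a gene. Both were easy cases, so they give no measure of error in the real counts. The summing and thinning steps were not checked.

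A barcode passed with 500 or more UMIs, 300 or more genes and no more than 10% of its UMIs from mitochondrial genes. Counts were scaled to 10000 and clustered over all 4 libraries on 2000 variable genes, without the 5 genes described and without V, D and J segment genes, with 30 components, 15 neighbours and Leiden resolution 1 (scanpy 1.11.5, leidenalg 0.10.2, numpy 2.4.6, scipy 1.17.1, seed 0). A cluster took a class name where at least 3 of the class's markers were each in at least 10% of its barcodes and its marker score was at least 0.5. It stayed unnamed where its 10 leading genes held more markers of another class. After the clusters were seen, leading genes were set as fold against clusters of other classes, and 1 myeloid cluster was split into 11. No doublets were removed. UMIs were summed per class and library. Intervals are exact Poisson (levels) and Clopper-Pearson (shares) at 95%. Where a count was 0, the limit given is 3 counts over the total. Shares at equal depth came from thinning to the depth at percentile 10 of a class. Barcodes below that depth were left out, in unequal parts by library. Ratios used genes with at least 100 UMIs in the highest library, and counts under 3 in the lowest were set to 3. The 5 genes, the gene lists and the partner genes were chosen with earlier results of these data known. From each list the text names the 3 members with the highest median level and the member with the largest ratio, and the other members named were chosen after their values were seen. T cell receptor libraries were not analysed here. The values of some list members and 1 of the motifs searched are not reported here, while the counts and medians of the lists include every member.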

Additional observations from a re-analysis of the deposited data

How the results depend on the processing

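No paired analysis was possible because each combination of genotype and tissue had 1 expression library and no library could be tied to a sample. Replicates could not be left out for the same reason. Of 120 recomputed shares of barcodes with a UMI, 89 stayed within the counting interval of the value given and 31 moved beyond it. A limit of 5% mitochondrial UMIs and removal of the top 5% of doublet scores moved none of 12 shares each. Removal of called doublets moved none either, but it took out 166, 0, 2 and 116 barcodes of C1 to C4 and so says nothing about C2 and C3. Taking the class of each barcode from its own markers gave Cxcr3 shares in T-like barcodes of 55.9%, 50.9%, 64.5% and 8.76% in C1 to C4, and Cxcr6 shares of 67.8%, 27.8% and 8.17% in C2 to C4. It also gave 55.5% for Cxcl9 in macrophage-like barcodes of C2 and 92.8% for Cxcl16 in C1. Thinning to equal depth gave the shares 42.5%, 44.0%, 42.6% and 6.20% for Cxcr3, 69.4%, 60.8%, 17.4% and 6.57% for Cxcr6, 52.9% for Cxcl9 in C2 and 88.7% for Cxcl16 in C1. The Cxcl16 share moved to 94.5% in C2 with at least 1000 UMIs per barcode, to 97.0% in C2 with each library clustered alone, and to 95.8% in C1 and 97.1% in C2 at resolution 0.5.

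After seeing the data, 6 alternatives were added: leading genes by fold against all other barcodes, removal of called doublets, gamma-delta segment genes kept for clustering, NK-like barcodes without cluster 21, T-like barcodes without cluster 9 beside clusters 4 and 6, and B-like barcodes without cluster 20. The values of the last 3 stand beside the results. With leading genes against all other barcodes, T-like clusters 0 and 9 lost their name. Cxcr3 shares were then 57.1%, 49.0% and 5.74% in C1, C3 and C4, Cxcr6 shares were 70.4%, 68.8%, 15.5% and 7.86%, and the Cxcr6 level of C1 over C2 turned from 1.31 to 0.900. With the segment genes kept, Cxcl16 in C1 was 93.5%. Of 405 recomputed levels 308 stayed within the interval and 97 moved. Removal of the top 5% of doublet scores moved 12 of 40 levels and removal of called doublets 4 of 40. The Cxcl9 ratio of C2 over C1 in macrophage-like barcodes ranged from 30.5 to 49.1, the Cxcr6 ratio of C2 over C3 in T-like barcodes from 7.87 to 13.7, and the Cxcr3 ratio of C3 over C4 from 5.56 to 10.2. Intervals cover counting error only, without the spread between animals.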
